A study of Mus musculus with 7 samples.

Results

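The subject is 8 transcription factors that make or keep the microglial lineage: Spi1, Irf8, Runx1, Cebpa, Sall1, Mef2a, Mef2c and Maf. They were taken by symbol from the 24537 genes of the deposited expression table, and all 8 had a row. Microglia, the resident macrophages of the brain, had been sorted as CD45int CX3CR1+ cells from C57BL/6 mice at day 35 after implantation of the 005 glioma, a mouse glioblastoma model, and their RNA was sequenced. There were 3 libraries from mice given an antibody to the T cell checkpoint receptor CTLA4 together with depletion of CD4 T cells, 2 libraries labelled as from mice given anti-CTLA4 alone and 2 from mice given control IgG. All the mice carried the tumour, so none of the groups shows tumour-free microglia, and neither age nor sex was given in the labels used here. Whether replicates were separate mice is not stated in the labels, and p-values therefore cover no more than the variation among these 7 libraries, part or all of which may be technical.

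PU.1, the product of Spi1, is an ETS-family factor without which macrophages and microglia do not form, and it opens much of the myeloid enhancer landscape. IRF8 binds DNA poorly alone and joins PU.1 at composite ETS-IRF elements. RUNX1, which binds DNA together with the non-DNA-binding subunit encoded by Cbfb, and C/EBP alpha act earlier in blood cell and myeloid development. SALL1, MEF2A, MEF2C and c-MAF (the product of Maf) come into play once macrophages settle in the brain. Among macrophages and blood cells of mice, Sall1 is expressed almost only by microglia, where it holds the homeostatic programme.

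Promoters of 6 members were found in the RefSeq table for build GRCm38.p6, in 12 windows of 300 bases, 250 before and 50 after an annotated start. Spi1 and Maf had no entry. Each window was searched on both strands for motifs of the factors themselves. No window held the PU.1 motif GAGGAAGT, the ETS-IRF composite (GGAA, 2 bases of any kind, GAAA), the interferon response motif (GAAA, 2 bases, GAAA) or the MAF motif (TGCTGA, 5 bases, GCA), which 3.2%, 2.72%, 3.44% and 0.314% of all 32851 promoter windows held. These letter strings can share bases, since both the composite and the interferon motif end in GAAA. The MEF2 motif (CTA, 4 bases, TAG), found in 3.69% of all windows, lay across the annotated start of Mef2a, itself a MEF2 gene. The RUNX motif TGTGGT, found in 16.8% of all windows, stood in 2 copies on the opposite strand shortly after the distal start of Runx1. That distal window is not at the start of the row deposited for Runx1. The loose C/EBP motif TTNCNNAA, held by 40.7% of all windows, matched in Sall1 and Mef2c. The windows of Mef2a and Runx1, which each hold a motif of their own factor family, and of Irf8, which holds none of the 7 motifs, are printed here in lower case with motif matches in capitals, 5′ to 3′ on the gene's strand. Mef2a lies at chr7:67372809-67373108 on the minus strand, Runx1 at chr16:92826025-92826324 on the minus strand and Irf8 at chr8:120736108-120736407 on the plus strand. A match is a string of letters and says nothing of binding in these cells.
Mef2a: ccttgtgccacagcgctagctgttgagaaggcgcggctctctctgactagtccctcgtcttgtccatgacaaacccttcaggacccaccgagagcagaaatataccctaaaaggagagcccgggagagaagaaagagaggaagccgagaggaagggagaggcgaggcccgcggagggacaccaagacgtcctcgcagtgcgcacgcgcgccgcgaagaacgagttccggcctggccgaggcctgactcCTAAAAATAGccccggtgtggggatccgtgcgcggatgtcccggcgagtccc
Runx1, distal start: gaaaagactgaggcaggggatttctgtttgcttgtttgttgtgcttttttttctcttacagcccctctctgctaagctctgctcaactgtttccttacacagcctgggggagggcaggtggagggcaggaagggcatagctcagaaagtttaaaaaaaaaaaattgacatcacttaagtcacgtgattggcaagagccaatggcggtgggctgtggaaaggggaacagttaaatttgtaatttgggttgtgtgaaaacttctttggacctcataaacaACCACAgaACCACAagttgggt
Irf8: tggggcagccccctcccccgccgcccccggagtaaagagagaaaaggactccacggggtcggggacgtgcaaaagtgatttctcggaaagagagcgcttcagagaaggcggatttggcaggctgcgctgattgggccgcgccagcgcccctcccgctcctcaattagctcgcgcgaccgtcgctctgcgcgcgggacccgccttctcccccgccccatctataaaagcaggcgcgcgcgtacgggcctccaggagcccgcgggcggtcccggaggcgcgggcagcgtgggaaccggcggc

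Values are FPKM, which divide fragments by transcript length and library size, so levels can be compared between genes. Low values imply 49900000 to 61800000 reads in genes per library. The sheet numbers of the anti-CTLA4 columns, 29 and 30, belong to interferon-gamma receptor knockout libraries in the command of the table's header, whereas the sample descriptions give 10 and 11. They are therefore called the libraries labelled anti-CTLA4, and each direction against them rests on that name. The sorted cells carried a microglial marker: Tmem119 stood between 243 and 1001 FPKM over the 7 libraries. CD4 depletion replicate 1 stood apart, with the 10 monocyte genes summing to 1028 FPKM against 27.6 to 66.3 FPKM in every other library, none of the 10 at 0 in any library. The 8 neutrophil genes summed to 549.9 FPKM in that library and to 35.8 to 156 FPKM elsewhere. Most of the sum there came from S100a8 (227 FPKM) and S100a9 (203 FPKM), and Mmp8, Mmp9, Cxcr2 and Retnlg were also highest there. Ly6g was not, at 0.10 FPKM against 0.27 FPKM in replicate 2 labelled anti-CTLA4. Nor was Csf3r, at 38.6 FPKM against 63.1 and 88.9 FPKM in the libraries labelled anti-CTLA4. The 16 genes of tumour and oligodendrocyte precursor-like cells summed to 224 to 740.5 FPKM with CD4 depletion, 46.7 to 116 FPKM in the libraries labelled anti-CTLA4 and 869 to 1188 FPKM with IgG, with none of the 16 at 0 in any library. The 13 endothelial and mural genes summed to 70.0 to 106 FPKM with CD4 depletion, 196 to 332 FPKM in the libraries labelled anti-CTLA4 and 35.4 to 38.4 FPKM with IgG. Most of the sum in the libraries labelled anti-CTLA4 came from Dcn (137 and 73.7 FPKM), Vtn (87.3 and 39.4 FPKM) and Col1a1 (45.4 and 22.7 FPKM). Of 12 tested, 10 had a higher mean log2 level there than with IgG. Flt1 was lower, at 1.60 and 1.99 FPKM against 2.63 and 2.00 FPKM. The 5 erythroid genes summed to 166 to 575 FPKM with CD4 depletion. They summed to 938 and 980.2 FPKM in the libraries labelled anti-CTLA4 and to 47.4 and 328 FPKM with IgG. All 5 had a higher mean log2 level in the libraries labelled anti-CTLA4 than with IgG, at a median log2 change of 2.84. Of these, 4 had a limma adjusted p under 0.05, beside 9.29% of all tested genes called higher. Every depletion library exceeded all other libraries in Eif2s3y, Uty and Ddx3y, which lie on the Y chromosome. Kdm5d, also Y-linked, did not follow, at 0.66 FPKM in depletion replicate 1 against 0.75 FPKM in IgG replicate 1. The libraries without depletion also held such transcripts, with Eif2s3y at 0.34 to 1.06 FPKM. Levels of the first 3 genes thus differed with depletion, and sex cannot be told apart from it. In bulk libraries, fewer cells of a type and less RNA per cell cannot be told apart, and the part of these other cells in the results below was not tested.

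Among the factors that set up the lineage, Irf8 and Spi1 were the most abundant. Irf8 stood at 66.0, 94.4 and 78.3 FPKM in the 3 CD4 depletion libraries, 172 and 189.6 FPKM in the libraries labelled anti-CTLA4, and 97.95 and 91.2 FPKM with IgG. Both libraries labelled anti-CTLA4 lay above all others, and depletion overlapped IgG. Spi1 stood at 95.6, 66.3 and 67.1 FPKM with depletion, 130.9 and 129.7 FPKM in the libraries labelled anti-CTLA4, and 47.6 and 57.3 FPKM with IgG. The 3 groups of Spi1 values did not overlap, and depletion lay in the middle, with replicate 1 highest of its group. Runx1 followed the same order of libraries within depletion, at 9.94, 5.22 and 6.71 FPKM, against 9.08 and 10.7 FPKM in the libraries labelled anti-CTLA4 and 4.66 and 4.67 FPKM with IgG. Its depletion values lay above IgG, and replicate 1 lay between the libraries labelled anti-CTLA4. Cebpa stood at 11.98, 13.4 and 17.0 FPKM with depletion, 25.2 and 32.1 FPKM in the libraries labelled anti-CTLA4, and 12.3 and 11.8 FPKM with IgG. The libraries labelled anti-CTLA4 lay above both other groups, which overlapped.

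Among the factors of brain residence, Sall1 had the widest relative spread between replicates with CD4 depletion and in the libraries labelled anti-CTLA4. It stood at 13.9, 30.9 and 27.8 FPKM with CD4 depletion, 34.2 and 62.9 FPKM in the libraries labelled anti-CTLA4, and 25.6 and 25.0 FPKM with IgG. Depletion replicate 1, the library with the monocyte genes, was the lowest of all 7, and the libraries labelled anti-CTLA4 lay highest but differed widely from each other. Mef2a stood at 24.9, 31.3 and 23.1 FPKM with depletion, 26.7 and 44.5 FPKM in the libraries labelled anti-CTLA4, and 23.6 and 19.9 FPKM with IgG. Only its second library labelled anti-CTLA4 stood clear of the rest. Mef2c stood at 14.0, 21.0 and 17.99 FPKM with depletion, 26.4 and 36.8 FPKM in the libraries labelled anti-CTLA4, and 16.8 and 14.7 FPKM with IgG. Maf, the lowest of these 4, stood at 5.79, 8.66 and 6.51 FPKM with depletion, 11.96 and 12.7 FPKM in the libraries labelled anti-CTLA4, and 7.95 and 5.83 FPKM with IgG. For Mef2c and Maf the libraries labelled anti-CTLA4 lay above both other groups, which overlapped.

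**Figure D1:**
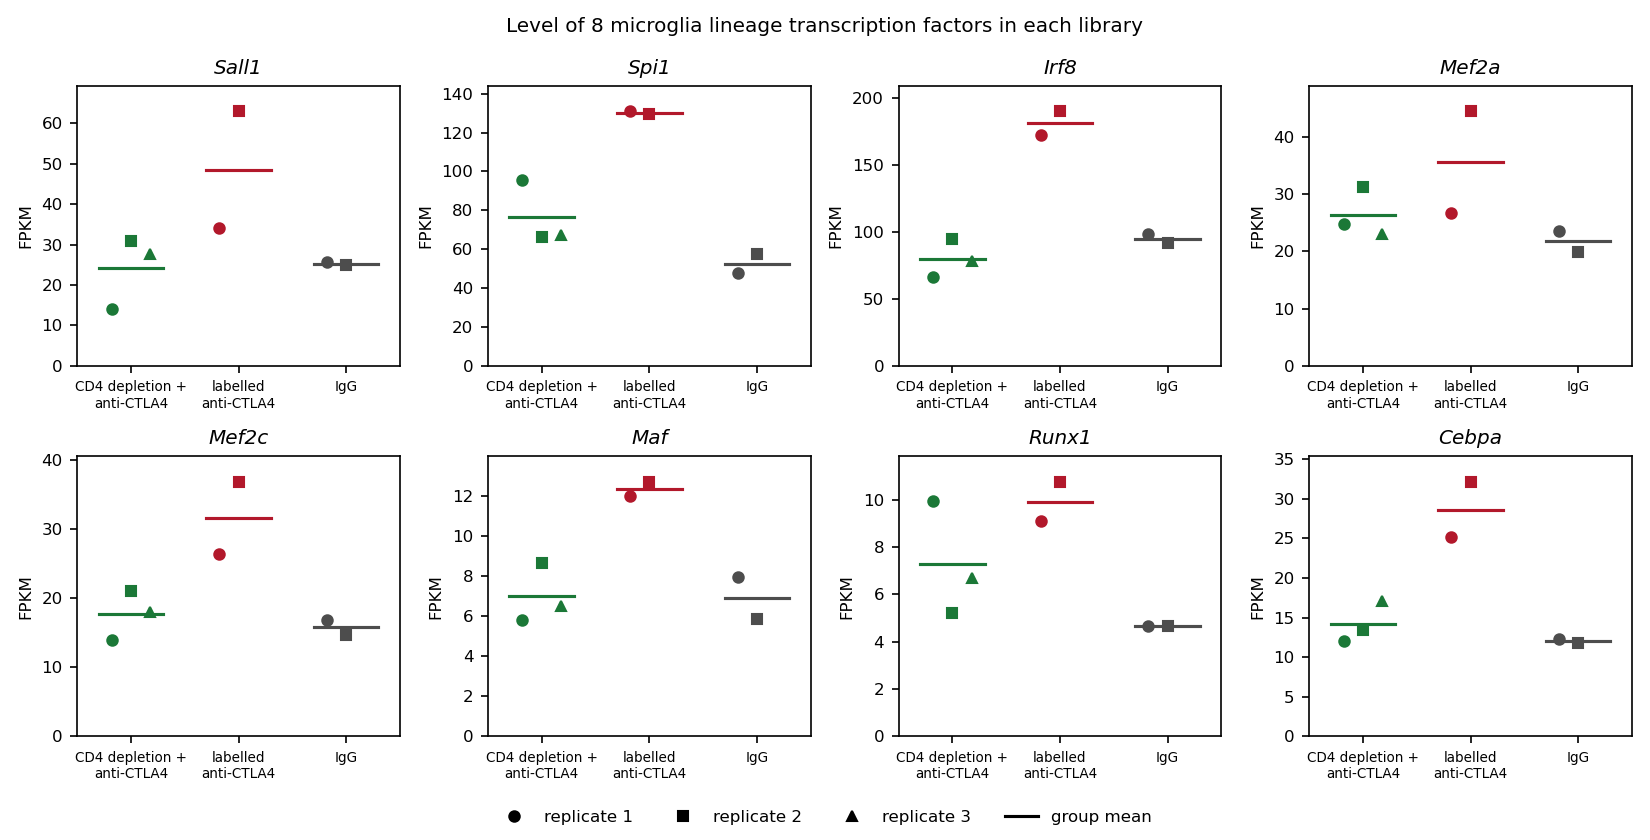
Level in FPKM (vertical axes, linear, from 0) of each of the 8 factors in the 7 libraries, by group; symbols are replicates and bars group means. The 2 libraries labelled anti-CTLA4 are the highest of all 7 for Spi1, Irf8, Sall1, Mef2c, Maf and Cebpa.

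Group means kept Irf8 first and Spi1 second in every group. Irf8 averaged 79.6 ± 14.3 FPKM with CD4 depletion (SD, n = 3), 180.9 ± 12.3 FPKM in the libraries labelled anti-CTLA4 (SD, n = 2) and 94.6 ± 4.75 FPKM with IgG (SD, n = 2). Spi1 averaged 76.4 ± 16.7 FPKM with CD4 depletion, 130.3 ± 0.83 FPKM in the libraries labelled anti-CTLA4 and 52.5 ± 6.87 FPKM with IgG (SD, same n). With IgG the order was Irf8, Spi1, Sall1, Mef2a, Mef2c, Cebpa, Maf and Runx1, and no neighbours in it overlapped between libraries. With depletion Irf8 and Spi1 overlapped, as did Sall1 with Mef2a, Mef2c and Cebpa, Mef2c with Cebpa, and Runx1 with Maf. In the libraries labelled anti-CTLA4, the values of Sall1, Mef2a, Mef2c and Cebpa formed a chain of overlapping ranges. Each member had between 1780 and 48500 implied reads in each library. Reads on both strands were counted, and annotated exons of Mef2a share 302 bases with Lysmd4, those of Maf 440 with Gm15655, those of Runx1 106 with Gm26626 and those of Cebpa 51 with Gm45091, all on the opposite strand, so their reads cannot be told apart there.

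The first comparison asked how the factors stood under the checkpoint antibody alone. In the libraries labelled anti-CTLA4, 6 of the 8 factors rose over IgG, led by Spi1 and Cebpa, at a median log2 change of 0.93 over the 8 factors against -0.31 over all 13028 tested genes. Of all tested genes, 9.29% were called higher, 28.8% lower and 38% in either direction. All 8 factors had both libraries labelled anti-CTLA4 above both IgG libraries, which held for 22.8% of tested genes, while 54.1% lay below without overlap. Fold changes are differences of log2(FPKM + 1), and a gene was called at a limma adjusted p under 0.05.

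Spi1 rose by 1.30 on the log2 scale (SE 0.22, limma adjusted p = 0.0101) and Cebpa by 1.18 (SE 0.21, limma adjusted p = 0.0105). Irf8 rose by 0.93 (SE 0.20, limma adjusted p = 0.0147) and Runx1 by 0.94 (SE 0.27, limma adjusted p = 0.0307). Of the factors of brain residence, Mef2c, a MADS-box factor, rose by 0.95 (SE 0.24, limma adjusted p = 0.0213) and Maf, a basic leucine zipper factor, by 0.77 (SE 0.23, limma adjusted p = 0.0337). Sall1, the factor most specific to microglia, did not pass at 0.85 (SE 0.40, 95% interval -0.09 to 1.80, limma adjusted p = 0.130). Mef2a did not pass either, at 0.64 (SE 0.26, limma adjusted p = 0.0891). Both rested on which library labelled anti-CTLA4 was used: without replicate 1 of that group Sall1 had 1.28 and Mef2a 1.003, which passed for Mef2a (limma adjusted p = 0.0309), and without replicate 2 they had 0.42 and 0.29. Mef2a also passed with quantile normalization, at 0.89 (limma adjusted p = 0.0477). The libraries labelled anti-CTLA4 had a higher mean log2 level of the 26 homeostatic microglia genes, at 8.16 and 8.80 against 7.71 and 7.50 with IgG. Of the 26 genes, 10 were called higher and 1 lower, beside 9.29% higher and 28.8% lower of all tested genes, and 15 had no call. The 1 lower gene, Serpine2, stood at 296 and 291 FPKM against 650 and 698 FPKM with IgG. Tumour-cell genes were lower in the libraries labelled anti-CTLA4, as summed above. After each library was scaled to the mean of that homeostatic list, 0 of the 8 factors passed, their median was 0.06, and Sall1, Mef2a and Maf lay below 0. With median-of-ratios scaling 8 factors rose, and the all-gene median was -0.01. Dropping any library labelled anti-CTLA4 or any IgG library left 1 library in its group. Most or all calls were lost when this was anti-CTLA4 replicate 2 or either IgG replicate, among all tested genes as among the factors. Fewer were lost when it was replicate 1 of the anti-CTLA4 label, where the median of the 8 factors was 1.11. That median was 0.78 with replicate 2 of the same label dropped, 0.97 without IgG replicate 1 and 0.87 without IgG replicate 2. Without depletion replicate 1, which enters the shared spread, Sall1 passed as well (limma adjusted p = 0.0360).

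The second comparison asked how the factors stood when CD4 T cells were depleted under the antibody. With depletion 5 of the 8 factors fell against the libraries labelled anti-CTLA4: Irf8, Cebpa, Mef2c, Spi1 and Maf. The median log2 change of the 8 factors was -0.80 and that of all tested genes 0.27. Of all tested genes, 6.59% were called lower and 22.8% higher. For 6 factors every depletion library lay below both libraries labelled anti-CTLA4, as for 15.7% of tested genes against 44.7% above, while Mef2a and Runx1 overlapped. This comparison shares its libraries labelled anti-CTLA4 with the first, so high values there enter both.

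Irf8 fell by 1.19 on the log2 scale (SE 0.18, limma adjusted p = 0.0124), and Cebpa by 0.97 (SE 0.19, limma adjusted p = 0.0157). Mef2c had -0.81 (SE 0.22, limma adjusted p = 0.0319), Spi1 -0.78 (SE 0.20, limma adjusted p = 0.0283) and Maf -0.75 (SE 0.21, limma adjusted p = 0.0339). Sall1 had a fold change of similar size but a wide error, -0.99 (SE 0.37, 95% interval -1.85 to -0.12, limma adjusted p = 0.079), and did not pass. It was -0.56 without anti-CTLA4 replicate 2, -1.42 without anti-CTLA4 replicate 1 and -0.65 without depletion replicate 1. With median-of-ratios scaling Sall1 passed, at -1.30 (limma adjusted p = 0.0336). In that scaling 6 factors fell, beside 1648 lower and 1455 higher of all 13028 tested genes. Runx1 at -0.43 (SE 0.24, limma adjusted p = 0.204) and Mef2a at -0.38 (SE 0.24, limma adjusted p = 0.247) did not pass in the deposited scaling. Mef2a had -0.025 without anti-CTLA4 replicate 2 and -0.74 without replicate 1 of that group, and Runx1 had -0.25 without depletion replicate 2. Without depletion replicate 1, which carried the monocyte genes, 6 factors and 5291 of all tested genes passed, against 3827 genes with all libraries. Runx1 was among the 6 at -0.65 (SE 0.18, limma adjusted p = 0.0277). The homeostatic list had a mean log2 level of 7.14, 7.90 and 7.81 in the depletion libraries against 8.16 and 8.80 in the libraries labelled anti-CTLA4. Scaled to that list, 0 factors passed, the median was 0.07, and Spi1, Mef2a, Mef2c, Maf and Runx1 lay above 0. Without depletion replicate 3, 2 factors and 917 of all tested genes were called, against 5 and 3827 with all libraries. Without anti-CTLA4 replicate 2, which left 1 library in that group, all calls were lost, among all genes as among the factors. The median of the 8 factors was then -0.64. Some calls were lost without anti-CTLA4 replicate 1, where that median was -0.91.

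The third comparison set depletion under the antibody against IgG, and 0 of the 8 factors passed. None of the 13028 tested genes passed either (0%), with 851 genes, 6.53%, at an unadjusted p under 0.05 by limma, Spi1 the 1 factor among them. Spi1 had a log2 difference of 0.52 (SE 0.20, 95% interval 0.05 to 0.99, limma adjusted p = 0.710), and Runx1 of 0.51 (SE 0.24, 95% interval -0.06 to 1.08, limma adjusted p = 0.710). For these 2 factors each depletion library lay above both IgG libraries, which held for 11% of tested genes. The median of the 8 factors was 0.17 and that of all tested genes -0.04. The other 6 factors overlapped: Irf8 had -0.26 (95% interval -0.69 to 0.17) and Sall1 -0.14 (95% interval -0.999 to 0.73). Mef2a, Mef2c, Maf and Cebpa lay between 0.01 for Maf and 0.26 for Mef2a. The interval of Sall1 holds a fall as large as the 0.97 called for Cebpa in the second comparison, so the lack of a call does not show equal levels. Without depletion replicate 1, Sall1 stood at 0.20 and Runx1 at 0.29.

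**Figure D2:**
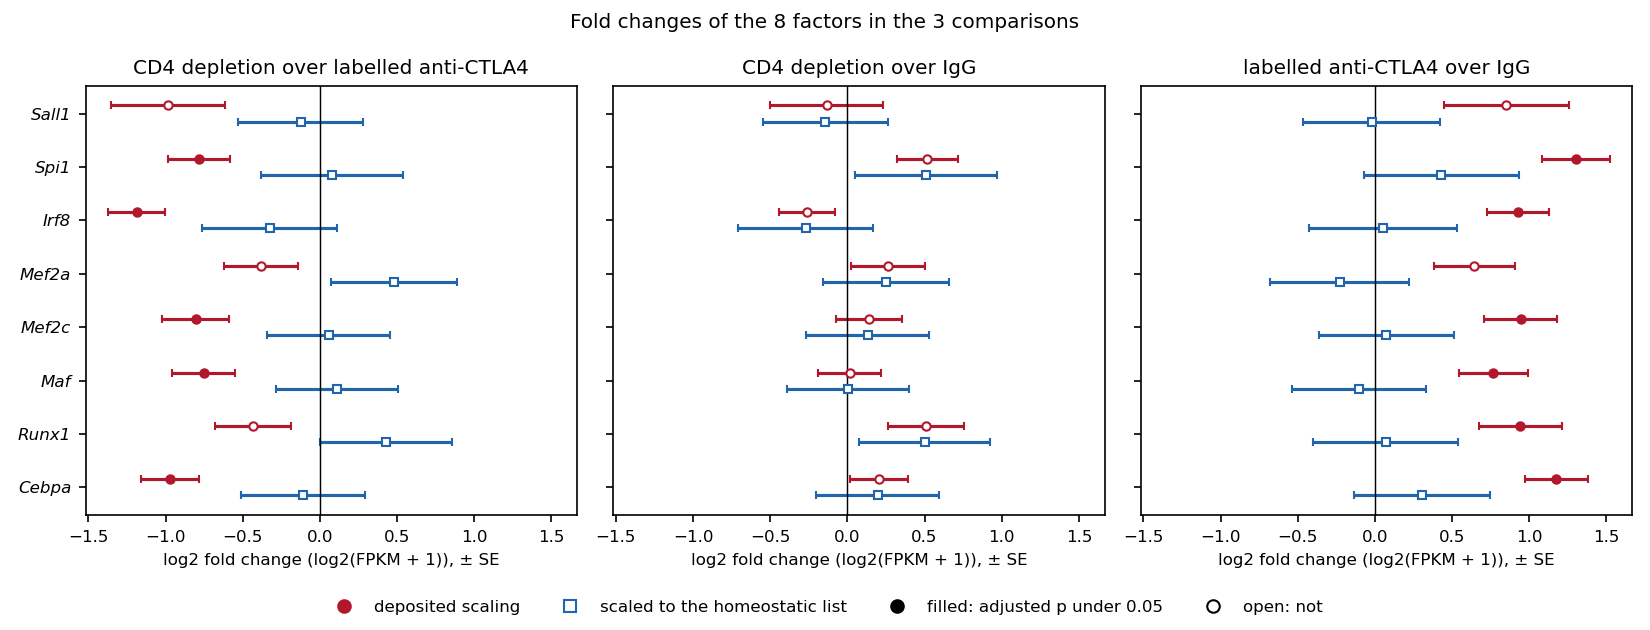
Log2 fold changes of the 8 factors (rows) with SE bars in the 3 comparisons (panels), in the deposited scaling (circles) and after scaling to the 26 homeostatic genes (squares); filled symbols have an adjusted p under 0.05. Filled symbols are seen only with the deposited scaling, 5 in the left panel, 0 in the middle and 6 in the right.

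Ratios between 2 factors within a library do not change with the scaling of that library. The ratio of Irf8 to Spi1, the partners at composite elements, had log2 values of -0.54, 0.51 and 0.22 with CD4 depletion, 0.40 and 0.55 in the libraries labelled anti-CTLA4 and 1.04 and 0.67 with IgG. Both IgG libraries lay above all 5 others: relative to Irf8, Spi1 was higher in every library of the antibody groups, most in depletion replicate 1. The ratio of Sall1 to Spi1 had log2 values of -2.78, -1.10 and -1.27 with depletion, -1.94 and -1.04 in the libraries labelled anti-CTLA4 and -0.90 and -1.20 with IgG. Depletion replicate 1 lay lowest and the groups overlapped. The ratio of Runx1 to Spi1 spanned only -3.85 to -3.27 over the 7 libraries, with overlapping groups. The ratio of Cebpa to Spi1 spanned -3.00 to -1.95, with overlapping groups and depletion replicate 1 lowest. Between 2 groups at a time, an exact permutation test cannot go below 0.333 for 2 libraries against 2 or 0.1 for 3 against 2, so none was run. The split of the IgG libraries from the 5 others for Irf8 was seen in the values, rests on 0.67 against 0.55, and was not tested.

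**Figure D3:**
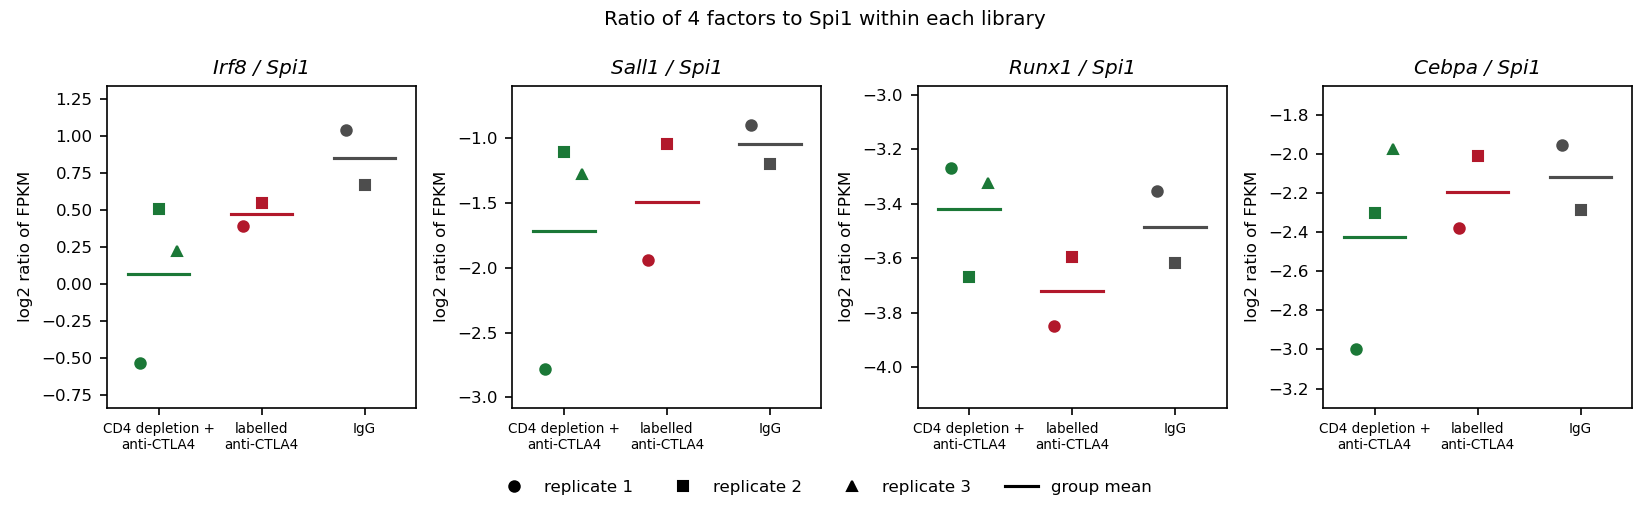
Log2 ratio of the FPKM of Irf8, Sall1, Runx1 and Cebpa to that of Spi1 within each library (vertical axes, which differ in range), by group; symbols are replicates and bars group means. The IgG libraries, at 1.04 and 0.67, lie above the 5 others for Irf8, and CD4 depletion replicate 1 is lowest for Irf8, Sall1 and Cebpa.

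Paralogues and partners of the factors did not share one pattern. Of 24 such genes 16 passed the filter on low values. In the libraries labelled anti-CTLA4 against IgG 4 rose and 3 fell, at a median log2 change of 0.23, beside 9.29% higher and 28.8% lower of all tested genes. With CD4 depletion against the libraries labelled anti-CTLA4 2 rose and 4 fell, at a median of -0.33, beside 22.8% higher and 6.59% lower of all tested genes. Depletion against IgG had 0 of 16 passing. Without depletion replicate 1 the counts were 7 and 3 in the first of these comparisons and 2 and 7 in the second. In the homeostatic scaling the balance turned over. In the first 0 were higher and 5 lower, at a median of -0.64, beside 72 higher and 7534 lower of all 13028 tested genes. In the second 5 were higher and 0 lower, at a median of 0.53, beside 8227 higher and 79 lower of all tested genes. All-gene medians in that scaling were -1.18 in the first and 1.13 in the second. As for all genes, 0 passed in either without anti-CTLA4 replicate 2. Cbfb, the partner subunit of the RUNX factors, went the opposite way to Runx1. It stood at 45.0, 39.8 and 43.8 FPKM with depletion, 19.2 and 14.9 FPKM in the libraries labelled anti-CTLA4 and 40.9 and 41.9 FPKM with IgG. Both libraries labelled anti-CTLA4 lay far below the 5 others. Its log2 fold change was -1.24 over IgG (SE 0.17, limma adjusted p = 0.00936) for those libraries and 1.29 (SE 0.15, limma adjusted p = 0.0114) for depletion over them, with the same sign and call under each of the 3 other scalings. Runx2 and Runx3 were low, at 0.06 to 2.06 and 0.288 to 4.11 FPKM, each highest in depletion replicate 1, and were not tested.

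Irf5, an interferon regulatory factor of macrophages, stood at 69.6, 49.6 and 54.7 FPKM with depletion, 94.8 and 120.2 FPKM in the libraries labelled anti-CTLA4 and 43.9 and 43.5 FPKM with IgG. The groups of Irf5 did not overlap and had the order seen for Spi1. It rose by 1.27 over IgG in the libraries labelled anti-CTLA4 (SE 0.21, limma adjusted p = 0.00995) and fell by 0.88 with depletion against them (SE 0.19, limma adjusted p = 0.0187), with no call under the homeostatic scaling (0.40 and -0.02). Irf1, which interferon-gamma induces, stood at 27.0, 72.1 and 31.1 FPKM with depletion, 108 and 120.0 FPKM in the libraries labelled anti-CTLA4 and 103 and 81.1 FPKM with IgG. Depletion lay below both other groups, at -1.51 against the libraries labelled anti-CTLA4 (SE 0.39, limma adjusted p = 0.0290), and at -0.64 without a call in the homeostatic scaling. For the libraries labelled anti-CTLA4 over IgG, Irf1 had 0.31 (limma adjusted p = 0.576) and, in the homeostatic scaling, -0.56.

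Cebpb, the stress-responsive relative of Cebpa, stood at 334.9, 46.4 and 73.4 FPKM with depletion, 171 and 95.3 FPKM in the libraries labelled anti-CTLA4 and 34.2 and 58.1 FPKM with IgG. Depletion replicate 1 was by far the highest for Cebpb and no comparison passed, at 1.49 for the libraries labelled anti-CTLA4 over IgG (limma adjusted p = 0.187). Without that library Cebpb passed in this comparison (limma adjusted p = 0.0160) and in depletion against the libraries labelled anti-CTLA4, at -1.11 (limma adjusted p = 0.0480). Mef2d, unlike Mef2c, stood in a narrow range of 7.53 to 9.64 FPKM in all 7 libraries, with 0.15 for the libraries labelled anti-CTLA4 over IgG (limma adjusted p = 0.463, and -0.72 without a call in the homeostatic scaling). Sall3 had 4.38, 11.9 and 8.27 FPKM with depletion, 8.87 and 11.9 FPKM in the libraries labelled anti-CTLA4 and 10.7 and 13.9 FPKM with IgG. Its groups overlapped, with no call in the deposited scaling. In the homeostatic scaling Sall3 was lower in the libraries labelled anti-CTLA4 than with IgG, at -1.096 (limma adjusted p = 0.0314). That scaling called 7534 of all 13028 tested genes lower there, at an all-gene median of -1.18.

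**Figure D4:**
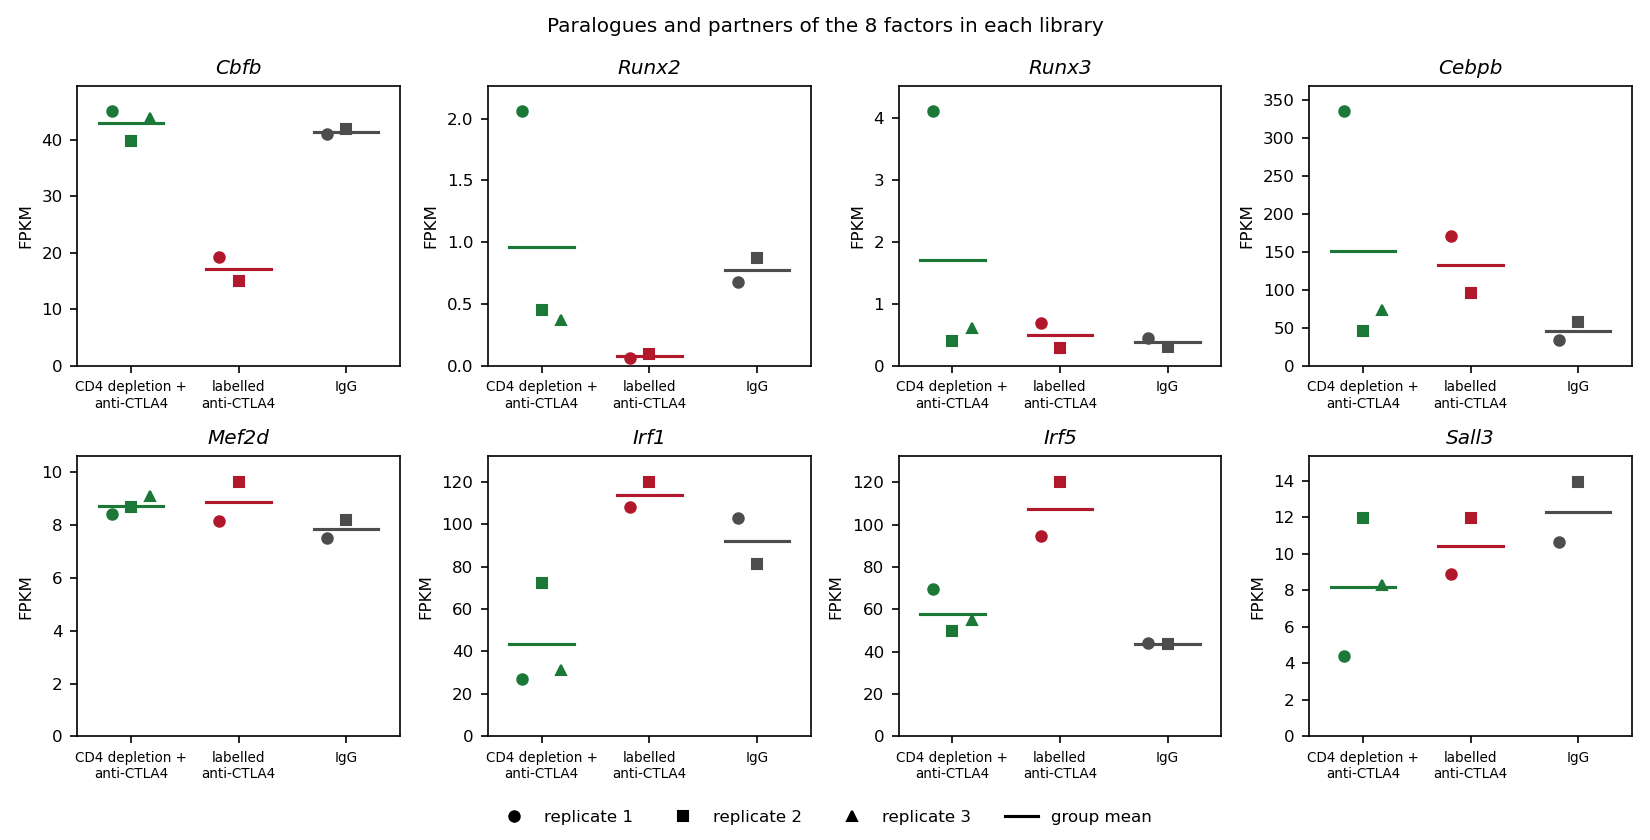
Level in FPKM (vertical axes, linear, from 0) of 8 paralogues and partners of the factors in the 7 libraries, by group; symbols are replicates and bars group means. Cbfb is lowest in the libraries labelled anti-CTLA4, at 19.2 and 14.9 FPKM, and Runx2, Runx3 and Cebpb are highest in CD4 depletion replicate 1.

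Among 40 other tested transcription factors of macrophages, 16 rose and 2 fell in the libraries labelled anti-CTLA4 over IgG, at a median log2 change of 0.79. Of all tested genes 9.29% rose and 28.8% fell there. Fli1, an ETS factor of blood and endothelial cells, rose by 1.12 (SE 0.18), Klf6, a zinc-finger factor of macrophage activation, by 1.40 (SE 0.26) and Lmo2, an adaptor of blood stem cell complexes, by 1.05 (SE 0.20). The 2 that fell were Myc, which drives growth, at -1.69 (SE 0.26), and Bhlhe40, at -1.49 (SE 0.35), whose call was lost with median-of-ratios scaling (-1.14, limma adjusted p = 0.0529). With depletion against the libraries labelled anti-CTLA4, 11 fell (18 with median-of-ratios scaling) and 2 rose, at a median of -0.62. Of all tested genes 6.59% fell and 22.8% rose there. The 2 that rose were Myc at 1.44 (SE 0.23) and Bhlhe40 at 1.87 (SE 0.32). Lmo2 at -1.09 (SE 0.18) and Fli1 at -0.94 (SE 0.16) were among those that fell. In the homeostatic scaling 2 rose and 6 fell in the first of these comparisons, beside 72 higher and 7534 lower of all 13028 tested genes. In the second 10 rose and 2 fell, beside 8227 higher and 79 lower of all tested genes. Fli1, Klf6 and Lmo2 had no call in that scaling. Against IgG, 0 of the 40 passed with depletion.

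Of 18 myeloid genes that PU.1 is known to act on, 12 rose in the libraries labelled anti-CTLA4 over IgG and 0 fell, at a median log2 change of 1.37. Of all tested genes 9.29% rose and 28.8% fell there. The list was chosen with earlier results of these data known, and whether its genes followed Spi1, at 1.30, was not tested. With depletion against the libraries labelled anti-CTLA4 7 fell, at a median of -0.87, beside 6.59% lower of all tested genes, and over IgG 0 passed. Without depletion replicate 1, in which several of these genes were high, 13 fell, and with quantile normalization 4 did. In the homeostatic scaling 0 of the 18 passed in any comparison, at medians of 0.49, -0.01 and 0.44. Csf1r, the receptor on which microglia depend for survival and also 1 of the 26 homeostatic genes, stood at 575 to 802 FPKM with depletion, 1262 and 1776 FPKM in the libraries labelled anti-CTLA4 and 687 and 602 FPKM with IgG. It rose by 1.22 over IgG in the libraries labelled anti-CTLA4 (SE 0.30, limma adjusted p = 0.0209) and fell by 1.103 with depletion against them (SE 0.27, limma adjusted p = 0.0269), though quantile normalization ended both calls (0.48 and -0.42). Itgam, which encodes CD11b, rose by 1.21 in the libraries labelled anti-CTLA4 (SE 0.33, limma adjusted p = 0.0280), and had -0.61 with depletion against them, which did not pass. That value was 0.26 in the homeostatic scaling, -0.92 with median-of-ratios scaling, and -0.91 with a call without depletion replicate 1 (limma adjusted p = 0.0112). In depletion replicate 1 Itgam stood at 192 FPKM, against 98.5 and 105 FPKM in the other depletion libraries, and it shared that rank with Spi1 and Runx1.

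Between the factors themselves, Pearson's r of log2 levels over the 7 libraries was 0.928 for Spi1 with Runx1 and 0.946 for Mef2c with Maf, but 0.412 for Spi1 with Sall1 and 0.227 for Runx1 with Sall1. These values describe libraries that fall into groups and share scaling and sorting. Among 7595 genes with a mean of at least 5 FPKM, those most like Spi1 were Snx20 (r = 0.993), Hcls1 (r = 0.992) and Adcy7 (r = 0.992). Among those most like Runx1 were Ptprc, which encodes CD45 (r = 0.988), and Sptlc2 (r = 0.986). Sall1 was most like Lpcat1 (r = 0.992), St3gal6 (r = 0.9915) and Gpr155 (r = 0.989), and Irf8 most like Mfsd11, Slc9a9 and Tlr12 (r = 0.9945, 0.992 and 0.991). Mef2c was closest to Epb41l2, Zfp658 and Hhex (r = 0.9945, 0.994 and 0.993) and Mef2a to Tacc1, Wdfy2 and Atmin (r = 0.984, 0.979 and 0.977). Maf was closest to Bid, Dguok and Armc7 (r = 0.992, 0.986 and 0.9855) and Cebpa to Grap, Rnaset2a and Daglb (r = 0.996, 0.994 and 0.989). No factor was among the 3 closest genes of another, and the nearest case was Mef2c, ranked 36 for Maf.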

How the data were processed

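The authors deposited FPKM values per gene, made with HOMER over exons with 1 entry kept per gene and reads of both strands counted, per the file headers. STAR, HOMER, DESeq2 and build mm10 are named in the submitters' processing notes, and versions are not given in the sources used here. A transcript length column was also deposited. Low values of short transcripts lay within 0.1 of whole reads in 100% of cases, which gave the implied depth; no count test was run. Of 40 libraries named in the header's command, 33 have no column.

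Differences were tested with limma 3.58.1 (R 4.3.3) on log2(FPKM + 1), with a mean-variance trend and 1 spread shared by all 3 groups. Tested were the 13028 genes that reached 1 FPKM in 2 or more libraries, two-sided, with Benjamini-Hochberg adjustment over all of them and a threshold of 0.05. The test was checked on simulated data. Alternatives changed the scaling, the pseudocount, the filter, the groups in the fit, the replicate block and the libraries used. Named besides the 8 factors are, per comparison and direction, up to 4 genes with the smallest p and a mean of at least 5 FPKM from the lists of paralogues and partners and of other macrophage factors, a fixed panel of close relatives, Csf1r, Itgam and the 3 genes most like each factor. Some genes this rule takes are not reported here. The members and all lists were chosen with earlier results of these data known.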

Additional observations from a re-analysis of the deposited data

How the results depend on the processing

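Over 15 alternatives, 287 of the 360 results on the fold change of a single factor kept direction and side of the threshold, 55 lost their call, 7 gained one and 11 changed sign. In depletion over IgG no gene was called, so keeping the side of the threshold was nearly fixed in advance there. Called factors kept their call in 7 (Runx1, Maf) to 12 (Spi1) of the 15 alternatives in the first comparison. In the second they did so in 7 (Mef2c) to 12 (Irf8, Cebpa). Scaling to the homeostatic list left 0 factors called in the first 2 comparisons, with 7606, 8306 and 1 genes called in the 3 comparisons, and turned Sall1 (-0.021), Mef2a (-0.23) and Maf (-0.10) for the libraries labelled anti-CTLA4 over IgG, and Spi1 (0.079), Mef2a (0.48), Mef2c (0.058), Maf (0.11) and Runx1 (0.43) for CD4 depletion over those libraries; the cause was not tested. That scaling moved the all-gene median to -1.18 and 1.13. In the deposited scaling 1210 genes were called higher and 3747 lower in the first comparison and 2969 and 858 in the second. Median-of-ratios scaling gave 2132 and 2050, and 1455 and 1648, and quantile normalization 1928 and 2081, and 1452 and 1460. Without the low-value filter 2 factors and 2477 genes were called in the second comparison. Leaving out single libraries gave 0 to 7 factors and 0 to 6069 genes in the first comparison and 0 to 6 factors and 0 to 5291 genes in the second, with 0 genes without anti-CTLA4 replicate 2 in either and 0 without IgG replicate 1 in the first. A lone library left in a group was assumed to vary like the other groups. In depletion over IgG, leaving out single libraries gave -0.34 to 0.20 for Sall1 and -0.18 to 0.21 for Maf, against 0.01 for Maf with all libraries.

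Whether replicate numbers pair the libraries could not be decided. Same-numbered deviations from the group mean correlated at 0.078 and 0.123 between depletion and the libraries labelled anti-CTLA4. The values were -0.125 between the libraries labelled anti-CTLA4 and IgG and -0.181 and -0.205 between depletion and IgG. In a group of 2 libraries the 2 deviations mirror each other, so these correlations carry little information on pairing. With the replicate block 3 and 0 factors, and 2665 and 0 genes, were called in the first 2 comparisons, and depletion replicate 3, alone in its number, then carried no information. The lowest level of a factor rested on 1780 implied reads; whether depth or the number of libraries limits the calls was not tested.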
